A study of Mus musculus with 6 samples.

Results

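RNA-binding proteins promote or repress exons whose use differs between neurons and other cells. Genes for 10 such proteins are described here in cultured mouse cerebellar granule neurons with and without knockdown of Kdm6b. Kdm6b is a demethylase of lysine 27 on histone H3. The 10 genes were taken by name from a count table of 23366 genes: Rbfox1, Rbfox2 and Rbfox3, the neuronal Elavl genes Elavl2, Elavl3 and Elavl4, Nova1 and Nova2, and Ptbp1 and Ptbp2. All 10 were found and all 10 passed the filter on low counts, with 1123 to 70621 reads per library.

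The cultures came from cerebella of C57BL/6 litters at postnatal day 7, so each pools several pups, and were enriched for granule cells on a Percoll gradient and plated with 2% serum. Lentivirus was added on day 1 in vitro. Control cultures (n = 3) received the empty pLKO.1 vector, which carries no hairpin, and knockdown cultures (n = 3) received pLKO.1 with a short hairpin RNA against Kdm6b. The labels number the libraries 1 to 3 in each group and do not state whether these were separate cultures, so the p-values measure the spread between these libraries. The labels give 1 hairpin sequence and no day of harvest, and they mention BDNF without naming the cultures that received it.

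Each family has its own place in neuronal life. Rbfox proteins bind the word UGCAUG in introns and promote or repress the neighbouring exon according to the side on which they bind, and Rbfox3 is the antigen known as NeuN. Neuronal Elavl proteins bind AU-rich RNA and act on both splicing and mRNA stability, and Nova proteins bind clusters of YCAY words in transcripts of synaptic proteins. Ptbp1 is the pyrimidine-tract protein of dividing and non-neuronal cells, where it represses neuronal exons, among them an exon that Ptbp2 needs to make a stable mRNA. When precursors leave the cell cycle Ptbp1 falls and Ptbp2 takes its place, and Ptbp2 is itself lowered later as neurons mature.

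Gene counts summed to 50326298 to 88214069 per library. Kdm6b stood at 257, 146 and 170 CPM (read counts brought to a common library size with TMM factors) in controls 1 to 3 and at 88.8, 63.3 and 79.8 CPM in knockdowns 1 to 3 (log2 fold change -1.28, SE 0.11, edgeR adjusted p = 0.0282 with the replicate number as a block, and -1.31, SE 0.25, edgeR adjusted p = 0.216 without). Markers of the labelled cell type were present, with the granule neuron factor gene Zic1 at 889 to 1307 CPM in all 6 libraries. The Purkinje cell marker Pcp2 was at 0 to 2 reads, but 6 of 8 Purkinje cell markers passed the filter. Those summed to 113 to 179 CPM in controls and 140 to 176 CPM in knockdowns. Other cell types were present too: 10 pericyte and fibroblast markers summed to 13140 to 26360 CPM in controls against 4328 to 11940 CPM in knockdowns. In these bulk libraries fewer cells of a type and less RNA per cell cannot be told apart.

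Ranked per kilobase of merged exon, Rbfox3 had the highest control level of the 10 genes at 89.8 ± 28.4 CPM per kilobase (SD, n = 3). Elavl3 followed at 75.6 ± 22.5 (SD, n = 3), Rbfox2 at 52.2 ± 2.48 (SD, n = 3), Rbfox1 at 35.5 ± 13.5 (SD, n = 3) and Ptbp1 at 34.7 ± 11.3 CPM per kilobase (SD, n = 3). From Rbfox3 down to Elavl4 the control libraries of each gene overlapped those of the next in rank. Within each control library, however, Rbfox3 stood above Elavl3 and Elavl3 above Rbfox2. From Rbfox2 down to Elavl4 the order of neighbouring ranks changed between control libraries, so that part is not resolved. The lower ranks were better separated. Elavl4 stood at 21.4 ± 6.43 (SD, n = 3), Nova2 at 15.2 ± 2.37 (SD, n = 3), Ptbp2 at 9.84 ± 0.860 (SD, n = 3) and Nova1 at 7.57 ± 0.865 CPM per kilobase (SD, n = 3), each without overlap with the next. Elavl2 came last at 4.08 ± 3.00 CPM per kilobase (SD, n = 3) and overlapped Nova1. Exon lengths are from GENCODE M21 on build GRCm38, not from the annotation behind the counts, so levels per length are approximate.

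**Figure D1:**
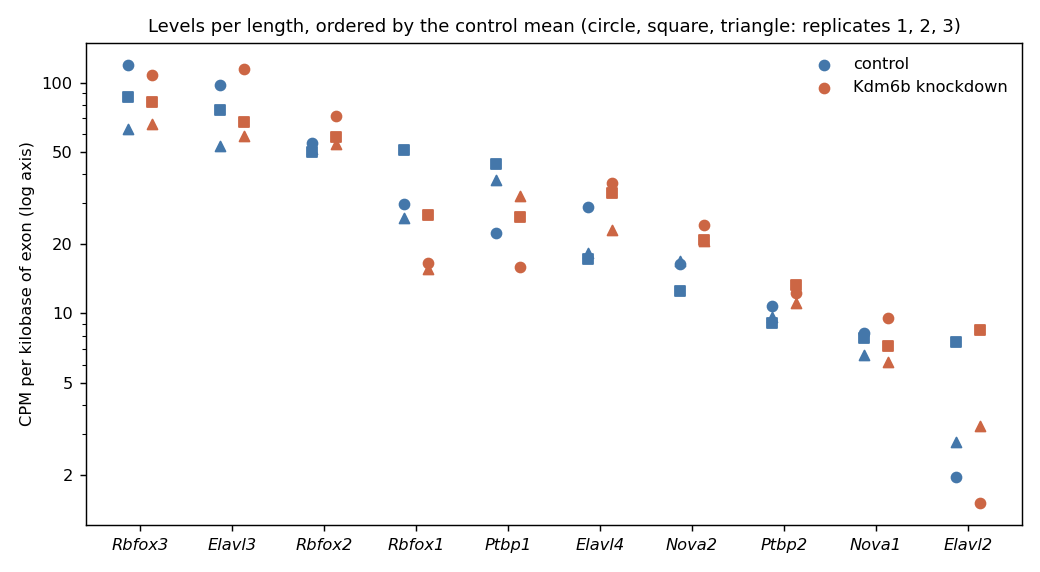
CPM per kilobase of merged exon (log axis) of the 10 genes in each of 6 libraries, ordered by the control mean, blue for control and orange for knockdown. Rbfox3, Elavl3 and Rbfox2 lead and Elavl2 is lowest, with its replicate 2 libraries well above the others.

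Promoters are shown for Rbfox1, the member that edgeR called only with the replicate number as a block. They are also shown for Ptbp1 and Ptbp2, the pair with opposite signs. Polycomb complexes, which place the mark that Kdm6b removes, favour promoters rich in CG dinucleotides in mammals. RefSeq promoters on GRCm38.p6 (250 bases before to 50 after a start) were available for 9 of 10 members, 18 promoters in all, and CG dinucleotides, read on both strands at once because the word is its own reverse complement, are in capitals. Rbfox1 has 2 promoters in this source, the windows chr16:5884543-5884842 and chr16:7069585-7069884 on the plus strand, with 3 and 7 CG dinucleotides. As many or more were held by 94.2% and 81.6% of the 14601 promoters of tested genes, whose median was 19. Ptbp1 at chr10:79854182-79854481 (plus strand) had 22 and Ptbp2 at chr3:119783339-119783638 (minus strand) had 36, a number reached by 42.3% and 11.3% of promoters.
Rbfox1 upstream start: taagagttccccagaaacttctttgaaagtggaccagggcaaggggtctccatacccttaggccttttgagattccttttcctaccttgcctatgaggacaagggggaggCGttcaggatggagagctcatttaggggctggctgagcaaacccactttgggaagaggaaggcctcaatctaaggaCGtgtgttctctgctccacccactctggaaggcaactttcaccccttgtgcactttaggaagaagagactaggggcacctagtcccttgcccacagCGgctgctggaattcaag
Rbfox1 downstream start: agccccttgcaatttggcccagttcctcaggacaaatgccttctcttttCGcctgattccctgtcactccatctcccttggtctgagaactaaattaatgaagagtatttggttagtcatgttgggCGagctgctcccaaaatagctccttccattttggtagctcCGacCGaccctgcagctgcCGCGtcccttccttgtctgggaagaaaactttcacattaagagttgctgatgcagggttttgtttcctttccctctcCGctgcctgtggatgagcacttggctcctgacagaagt
Ptbp1: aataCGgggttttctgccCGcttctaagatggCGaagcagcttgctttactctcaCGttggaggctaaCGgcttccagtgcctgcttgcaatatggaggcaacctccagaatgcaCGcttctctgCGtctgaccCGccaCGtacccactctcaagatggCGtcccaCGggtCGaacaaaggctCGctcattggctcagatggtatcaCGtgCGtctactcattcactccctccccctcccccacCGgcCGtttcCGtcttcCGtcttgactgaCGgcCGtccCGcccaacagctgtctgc
Ptbp2: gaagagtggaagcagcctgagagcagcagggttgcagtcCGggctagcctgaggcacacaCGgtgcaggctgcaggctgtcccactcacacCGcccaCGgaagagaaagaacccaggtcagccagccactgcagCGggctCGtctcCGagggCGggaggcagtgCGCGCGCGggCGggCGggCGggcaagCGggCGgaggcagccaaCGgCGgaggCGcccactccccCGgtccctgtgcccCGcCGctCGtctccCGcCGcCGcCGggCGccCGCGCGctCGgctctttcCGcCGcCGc
The Rbfox1 promoters were among the poorest in CG of the members, beside Rbfox3 with 4 and the downstream starts of Elavl4 with 4 to 6. Nova2 held 17, Nova1 14, Elavl3 29, the upstream Elavl4 start 23 and the 6 Elavl2 starts 10 to 27. No chromatin was measured, and no relation between CG content and the change in level was tested.

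Of the 10 genes, Rbfox1 alone passed the edgeR test over all genes, and only when the replicate number was taken into account. Libraries of the same number deviated together from their group means, and with that number as a block (edgeR quasi-likelihood fit, p adjusted over all genes under 0.05) 1 of 10 members was called, against 7.98% of the 15731 genes tested. The smallest adjusted p of any gene in this fit was 0.0282, which Rbfox1 and Kdm6b share with other genes, so it does not rank them. Lower calls made up 5.4% of all genes and higher calls 2.58%. That balance turned when libraries were scaled by their totals alone (723 higher and 553 lower, against 406 higher and 850 lower), while Rbfox1 stayed called. Without the block edgeR called 0 of 10 members and 0.00636% of all genes, and at an unadjusted p under 0.05 it marked 3 members (Rbfox1, Nova2 and Ptbp2) and 10.6% of all genes. DESeq2 without the block called 0 of 10 members and 3.84% of genes, and with the block 4 of 10 (Rbfox1, Nova2, Ptbp1 and Elavl4) and 23.7% of genes. The median log2 fold change of the members with the block was 0.04, beside 0.02 over all genes.

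Direction was the same in 3 of 3 replicate pairs for 6 of the members, as it was for 60.2% of all genes. Rbfox1 and Ptbp1 were lower and Rbfox2, Elavl4, Nova2 and Ptbp2 higher in each pair. For 2 of 10 members, Nova2 and Ptbp2, the knockdown and control libraries did not overlap, beside 16.7% of all genes.

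**Figure D2:**
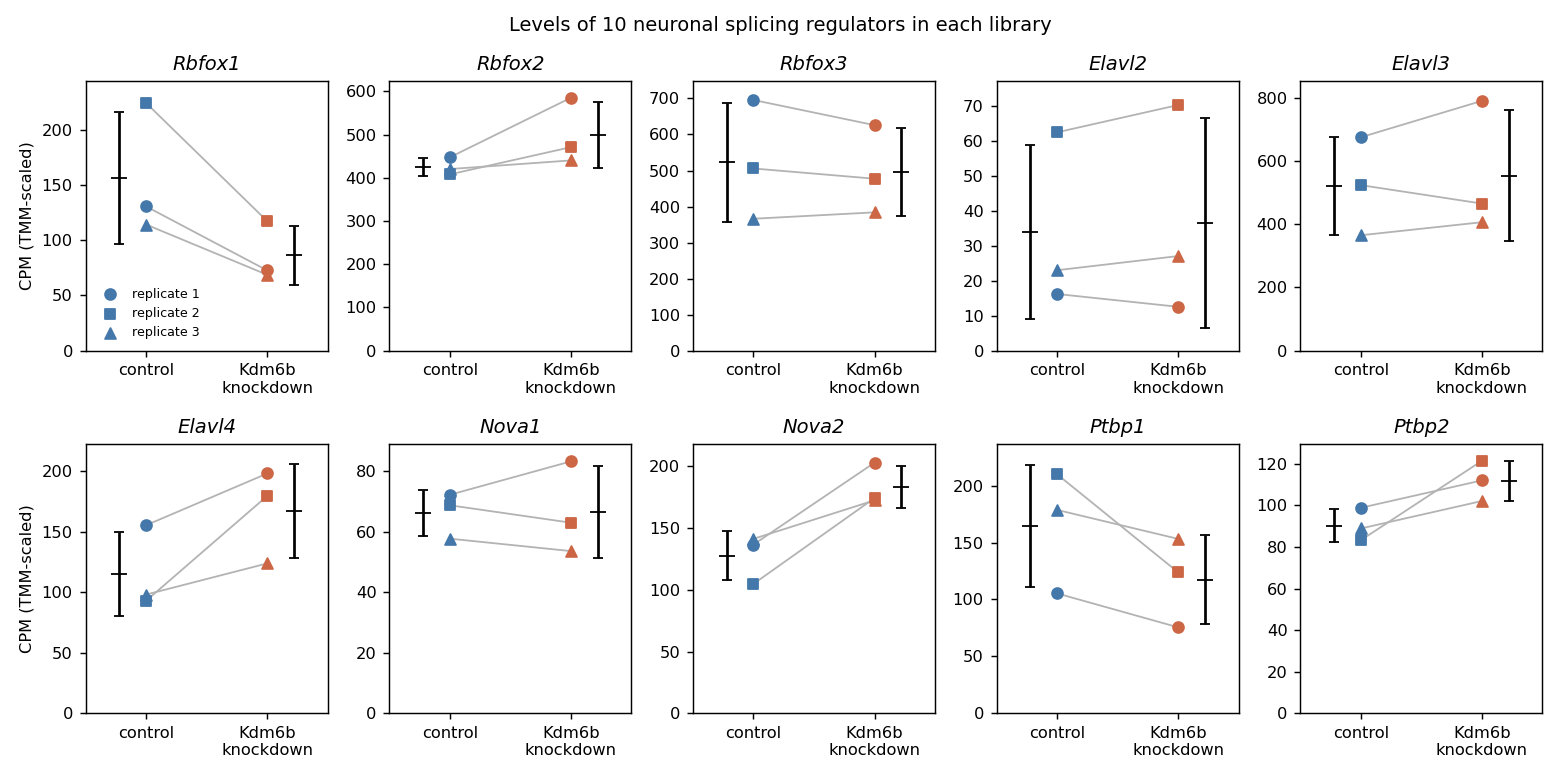
CPM (TMM-scaled, linear axes from 0) of each member in each library, with a line joining control and knockdown libraries of the same replicate number and group means with SD (n = 3) drawn in black. The 3 Rbfox1 lines descend together, and all 3 Nova2 knockdown values lie above the controls.

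Rbfox1 is the Rbfox gene of neurons, heart and muscle, and it lies on chromosome 16 from 5885355 to 7411526 (plus strand, GRCm38), with 22 merged exons over 1526 kb. It stood at 130, 224 and 114 CPM in controls 1 to 3 and at 72.6, 117 and 68.6 CPM in knockdowns 1 to 3. Replicate 2 was highest in both groups, and its knockdown value lay just above control 3, so the groups overlapped although every pair went down. Within pairs 1 to 3 the level changed by -44.4%, -47.7% and -39.8%. Rbfox1 fell with the block by 0.84 on the log2 scale (SE 0.07, edgeR adjusted p = 0.0282) and had a log2 fold change of -0.86 (SE 0.33, edgeR adjusted p = 0.456) without it. The unblocked value was -0.51 without control 2 and -1.16 without knockdown 2. The blocked call did not survive leaving out the replicate 1 pair (-0.83, edgeR adjusted p = 0.0985) or the replicate 2 pair (-0.81, edgeR adjusted p = 0.0515). Both promoter windows printed above are poor in CG, and gene counts do not show which starts were used.

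Rbfox2, the Rbfox gene that non-neuronal tissues also use, was higher in each pair and did not pass the test. Its levels were 447, 408 and 420 CPM in controls against 585, 471 and 440 CPM in knockdowns, with the highest value in knockdown 1 and the groups overlapping through control 1. The log2 fold change was 0.22 (SE 0.09) with the block (edgeR adjusted p = 0.177). Rbfox3, a marker of postmitotic neurons, followed the replicate number rather than the group. It was 696, 506 and 366 CPM in controls against 626, 477 and 384 CPM in knockdowns, and its log2 fold change with the block was -0.06 (SE 0.09, edgeR adjusted p = 0.674).

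The balance within the Rbfox family was compared as a ratio of counts inside each library, which no scaling factor can change. There were 0.292, 0.549 and 0.271 Rbfox1 reads per Rbfox2 read in controls and 0.124, 0.249 and 0.156 in knockdowns. All 3 knockdown ratios lay below all 3 control ratios, the 1 non-overlapping case among 8 ratios computed. The log2 ratio was 1.06 lower in the knockdown on average (difference of -1.06, SD of the pair differences 0.23, lower in 3 of 3 pairs), and the exact two-sided permutation p was 0.1, the smallest that 3 against 3 libraries allow (0.32 adjusted over the 8 ratios). Against Rbfox3 the Rbfox1 log2 ratio differed by -0.69, -0.85 and -0.80 in pairs 1 to 3, a spread of 0.08 (SD, n = 3), although the groups overlapped (exact permutation p = 0.2). Per length, Rbfox1 made up 20.02 ± 6.43% (SD, n = 3) of the summed Rbfox level in controls and 12.0 ± 3.81% (SD, n = 3) in knockdowns. Rbfox3 held 49.9 ± 7.57% and 50.9 ± 3.45% (SD, n = 3).

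**Figure D3:**
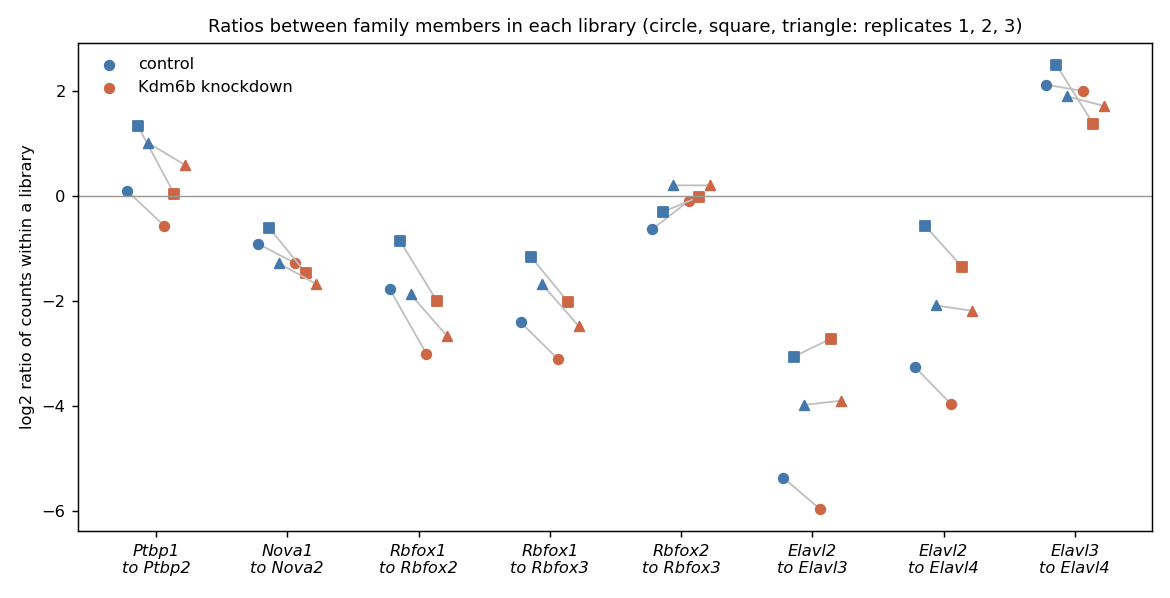
Log2 ratio of counts between members of a family within each library, with lines joining libraries of the same replicate number (blue control, orange knockdown). The Rbfox1 to Rbfox2 ratio was lower in all 3 pairs without overlap between groups, and the Ptbp1 to Ptbp2 ratio was lower in all 3 pairs with overlap.

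Ptbp1 was lower and Ptbp2 higher in every pair without passing the edgeR test over all genes. Ptbp1, on chromosome 10 from 79854427 to 79864771 (plus strand, GRCm38), was at 105, 210 and 179 CPM in controls against 75.5, 124 and 153 CPM in knockdowns. Both replicate 1 libraries were the lowest of their groups, and control 1 lay below knockdowns 2 and 3. With the block its log2 fold change was -0.49 (SE 0.12, edgeR adjusted p = 0.0671). That value passed without replicate 3 (-0.63, edgeR adjusted p = 0.0469) and with DESeq2 and the block (-0.50, DESeq2 adjusted p = 0.00310).

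Ptbp2, on chromosome 3 from 119718742 to 119784466 (minus strand, GRCm38), was at 98.8, 83.2 and 88.8 CPM in controls against 112, 121 and 102 CPM in knockdowns. The lowest knockdown library stood just above the highest control. Its log2 fold change was 0.31 (SE 0.10) with the block (edgeR adjusted p = 0.105) and 0.31 (SE 0.12) without it (edgeR adjusted p = 0.457). Without replicate 2 the blocked value was 0.17 (edgeR adjusted p = 0.251).

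In controls there were 1.07, 2.52 and 2.01 Ptbp1 reads for each Ptbp2 read, and in knockdowns 0.675, 1.02 and 1.501. The log2 ratio was lower by 0.66, 1.31 and 0.42 in pairs 1 to 3 (differences of -0.66, -1.31 and -0.42), a mean difference of -0.80 with an SD of 0.46 (n = 3). Groups overlapped, and the exact two-sided permutation p was 0.2 (0.32 adjusted over the 8 ratios). Leaving out 1 library moved the difference to between -1.16 (without control 1) and -0.50 (without knockdown 1). Part of the Ptbp1 signal may be shared, since 3 genes on the opposite strand overlap 5.30% to 9.22% of its exon bases and no source used here states whether reads were counted by strand. Of these 3, looked up by their GENCODE M21 names alone, E130317F20Rik was found in the count table. It stood at 4.37 ± 1.70 and 4.06 ± 1.28 CPM (SD, n = 3) in controls and knockdowns. The count table uses some older symbols, so the others, among them the protein-coding gene Plppr3, may be there under another name.

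Markers of pericytes and fibroblasts and of dividing cells, in which Ptbp1 is the usual paralogue, had lower sums in the knockdowns. The 10 pericyte and fibroblast markers summed to 13140, 23160 and 26360 CPM in controls 1 to 3 and to 4328, 6973 and 11940 CPM in knockdowns 1 to 3. Most of this sum came from Col1a1, Col1a2, Col3a1 and Fn1 (3598, 2833, 4237 and 1831 CPM in control 1). Among the 10 markers 7 fell with the block and 0 rose, beside 5.4% and 2.58% of all genes. None was at 0 in a library. Lum, Dcn and Rgs5 were not called, and Rgs5 had a positive value (0.42, SE 0.29, edgeR adjusted p = 0.348). Genes of dividing cells and granule precursors summed to 168, 437 and 554 CPM in controls against 81.4, 199.7 and 444 CPM in knockdowns, and 3 of 9 tested fell (Mki67, Mcm5 and Rrm2) while Atoh1 was too low to test. For both lists the sum was lowest in replicate 1 in both groups and lower in the knockdown in 3 of 3 pairs. Of all genes, 60.2% kept the same direction in 3 of 3 pairs. Sums of 10 oligodendrocyte lineage markers (1299, 204 and 1168 CPM in controls against 975, 166.5 and 898 CPM in knockdowns) and of 10 microglia markers (127, 43.9 and 92.0 CPM against 11.3, 14.6 and 54.2 CPM) were also lower in 3 of 3 pairs. Of these, 2 oligodendrocyte lineage markers and 1 microglia marker fell with the block and 0 rose, and the microglia markers C1qb, Cx3cr1 and Aif1 were at 0 in at least 1 library. Sums of 10 astrocyte and Bergmann glia markers and of 8 endothelial markers were lower in only 2 of 3 pairs. They were 1304, 1512 and 3081 CPM in controls against 866, 881 and 3139 CPM in knockdowns for astrocytes and Bergmann glia. For endothelium they were 86.6, 109 and 162 CPM against 67.7, 77.8 and 177 CPM. Among these, 1 astrocyte marker fell with the block, no endothelial marker did, and 0 rose. Whether any of these cells contribute to the lower Ptbp1 was not tested.

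**Figure D4:**
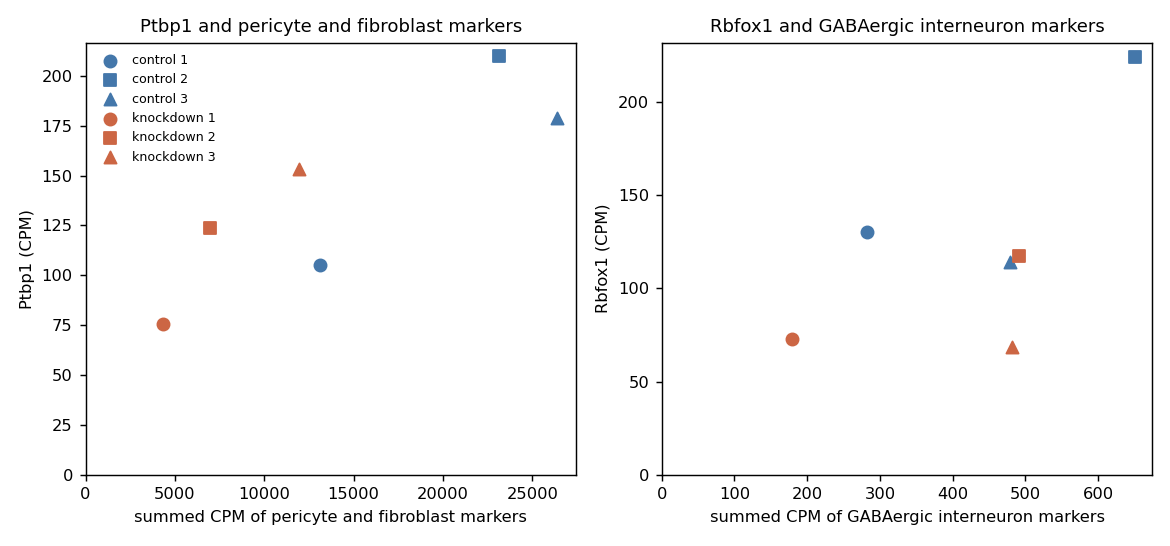
Ptbp1 against the summed CPM of 10 pericyte and fibroblast markers (left) and Rbfox1 against the summed CPM of 8 GABAergic interneuron markers (right) in each of 6 libraries, all axes linear from 0. Knockdown 1 is low on both axes of the left panel, and control 2 is highest on both axes of the right panel.

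Neuronal markers were set beside Rbfox1. The sum of 8 GABAergic interneuron markers was 282, 651 and 479 CPM in controls against 179.6, 491 and 481 CPM in knockdowns. It was highest in replicate 2 in both groups and lower in the knockdown in 2 of 3 pairs. With the block 1 of the 8 markers fell (Gad1, the enzyme that makes GABA) and 0 rose, beside 5.4% and 2.58% of all genes. None of the 8 was at 0 in any library. Of the 10 granule neuron markers 1 fell with the block, Etv1, and 0 rose. Members of that list that were not called include genes lower and genes higher in all 3 pairs, and those given here were named after their values were seen. The vesicular glutamate transporter gene Slc17a7 was highest in replicate 2 in both groups, at 403, 735 and 300 CPM in controls against 181, 228 and 212 CPM in knockdowns (log2 fold change with the block -1.11, SE 0.24, edgeR adjusted p = 0.0562), without overlap between groups. The developmental factor gene Pax6 (0.82, SE 0.16, edgeR adjusted p = 0.0510), the synaptic organiser gene Cbln1 (0.55, SE 0.13, edgeR adjusted p = 0.0661) and the secreted-protein gene Reln (0.73, SE 0.23, edgeR adjusted p = 0.101) had higher values in each pair. The sum of the 10 markers was 4409 to 6074 CPM in controls against 4517 to 6450 CPM in knockdowns. The part of any of these cells in the Rbfox1 values was not tested.

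Nova1 and Nova2 are paralogues that cross-link to many of the same synaptic transcripts in brain. Nova2, on chromosome 7 from 18925888 to 18965319 (plus strand, GRCm38), was at 137, 105 and 141 CPM in controls against 203, 174 and 172 CPM in knockdowns. Each knockdown value exceeded each control value, and the mean went from 128 ± 19.9 to 183 ± 17.1 CPM (SD, n = 3). The log2 fold change was 0.53 (SE 0.10) with the block, just outside the threshold (edgeR adjusted p = 0.0510), and 0.52 (SE 0.15) without it (edgeR adjusted p = 0.361). It passed with the block when libraries were scaled by totals alone (0.60, edgeR adjusted p = 0.0337), without replicate 3 (0.65, edgeR adjusted p = 0.0384) and with DESeq2 (0.51, DESeq2 adjusted p = 0.00145). Exons of the noncoding gene Gm26821 on the opposite strand cover 31.7% of Nova2 exon bases, so reads of the pair may be mixed.

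Nova1 overlapped between groups, at 72.2, 68.8 and 57.7 CPM in controls against 83.3, 63.0 and 53.6 CPM in knockdowns. Its log2 fold change with the block was -0.01 (SE 0.09, edgeR adjusted p = 0.958) and its sign changed with the setting. There were 0.529, 0.657 and 0.409 Nova1 reads per Nova2 read in controls and 0.410, 0.362 and 0.311 in knockdowns, lower in 3 of 3 pairs with a small overlap (exact permutation p = 0.2, 0.32 adjusted over the 8 ratios).

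Among the neuronal Elavl genes, which encode the HuB, HuC and HuD antigens, Elavl4 (HuD) was the one with the same sign in each pair. It stood at 155, 92.9 and 98.1 CPM in controls against 198, 179 and 124 CPM in knockdowns. The replicate 2 pair differed most, nearly doubling (93.2% higher), while pairs 1 and 3 differed by 27.5% and 26.2%. Its log2 fold change with the block was 0.54 (SE 0.14, edgeR adjusted p = 0.0773), and it was called with the block when scaled by totals alone (0.62, edgeR adjusted p = 0.0483) and with DESeq2 (0.53, DESeq2 adjusted p = 0.0101). Without replicate 2 the value with the block was 0.33 (edgeR adjusted p = 0.111).

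Elavl3 (HuC), the most abundant of the Elavl genes, was at 675, 523 and 365 CPM in controls against 790, 465 and 406 CPM in knockdowns. Replicate 1 was highest and replicate 3 lowest in both groups, the order also seen for Rbfox3. The log2 fold change was 0.07 (SE 0.11) with the block (edgeR adjusted p = 0.677). Elavl2 (HuB) differed between replicate numbers far more than between groups, at 16.2, 62.5 and 23.0 CPM in controls against 12.6, 70.3 and 27.1 CPM in knockdowns. Its coefficient of variation was 73.6% among controls, the largest of the members, and its log2 fold change with the block was 0.01 (SE 0.14, edgeR adjusted p = 0.951). Per length Elavl4 held 21.4 ± 3.85% of the summed Elavl level in controls and 27.2 ± 3.23% in knockdowns (SD, n = 3), and Elavl3 74.4 ± 2.40% and 68.7 ± 6.62% (SD, n = 3). The Elavl3 to Elavl4 log2 ratio was lower in 3 of 3 pairs with overlap (exact permutation p = 0.2).

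The genes most like each member over the 6 libraries were found by Pearson correlation of log2 CPM among 11771 genes. Each member had a gene at r = 0.984 or more, and the values are given as a description. The best match of genes other than the members was not computed. Rbfox1 was most like Dync1i1, a dynein intermediate chain (r = 0.997), Rbfox2 like Cbwd1 (r = 0.9935) and Rbfox3 like Eapp (r = 0.991). Nova1 was most like Zfp319 (r = 0.984) and Nova2 like Dcaf12l1 (r = 0.999). Ptbp1 was most like the actin-binding gene Pfn1 (r = 0.998) and Ptbp2 like Asf1a (r = 0.997). Elavl2 was most like Tusc3 (r = 0.999), Elavl3 like Cds1 (r = 0.996) and Elavl4 like Rfx7 (r = 0.997). Between members the closest were Elavl3 and Nova1 (r = 0.949), Elavl3 and Rbfox3 (r = 0.947) and Elavl4 and Ptbp2 (r = 0.910). These values share library depth and replicate number, and the closest member to Rbfox1 reached r = 0.577 (Elavl2).

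Other splicing genes place these values in context. Of the family members outside the 10, Ptbp3, the paralogue of blood cells and other non-neuronal tissue, fell between groups, with 84.7 ± 9.02 CPM in controls against 51.7 ± 9.65 CPM in knockdowns (SD, n = 3; log2 fold change with the block -0.73, SE 0.08, edgeR adjusted p = 0.0282), with no overlap between groups. Elavl1 (HuR), which is expressed in nearly all cells, went from 126 ± 13.8 to 106 ± 13.6 CPM (SD, n = 3; -0.25, SE 0.06, edgeR adjusted p = 0.0696). Of 22 other tissue-regulated splicing regulators tested, 4 rose and 1 fell with the block, beside 2.58% and 5.4% of all genes. Their median log2 fold change was 0.16. Mbnl2, a muscleblind protein that binds YGCY words and sets late developmental exons, fell from 285 ± 18.5 to 130 ± 5.31 CPM (SD, n = 3; -1.13, SE 0.08, edgeR adjusted p = 0.0282). The Celf genes Celf6 (1.66, SE 0.22, edgeR adjusted p = 0.0319), Celf3 (0.62, SE 0.06, edgeR adjusted p = 0.0282) and Celf4 (0.63, SE 0.11, edgeR adjusted p = 0.0452) rose, as did Khdrbs3, which encodes the SAM68-like protein SLM2 (0.80, SE 0.14, edgeR adjusted p = 0.0436). Celf4 and Khdrbs3 were named after their values were seen.

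General splicing factors had medians close to that of all genes. Over all genes 2.58% rose and 5.4% fell with the block. Of 25 hnRNP and poly(C)-binding protein genes 1 rose with the block, Pcbp3 (90.1 ± 6.08 CPM in controls, 133 ± 13.05 CPM in knockdowns, SD, n = 3; 0.56 on the log2 scale, SE 0.08, edgeR adjusted p = 0.0367), and 0 fell, with a median of 0.04. Of 15 SR proteins and relatives edgeR called 0 with the block, with 3 at an unadjusted p under 0.05 in the same fit, beside 34.1% of all genes. DESeq2 with the block called 2 of the 15, beside 23.7% of all genes. The median of the 15 was also 0.04. The one with the smallest p was Tra2a, whose product promotes exon inclusion, at 66.2 ± 1.76 and 86.0 ± 8.85 CPM (SD, n = 3; 0.37, SE 0.08, edgeR adjusted p = 0.0575).

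**Figure D5:**
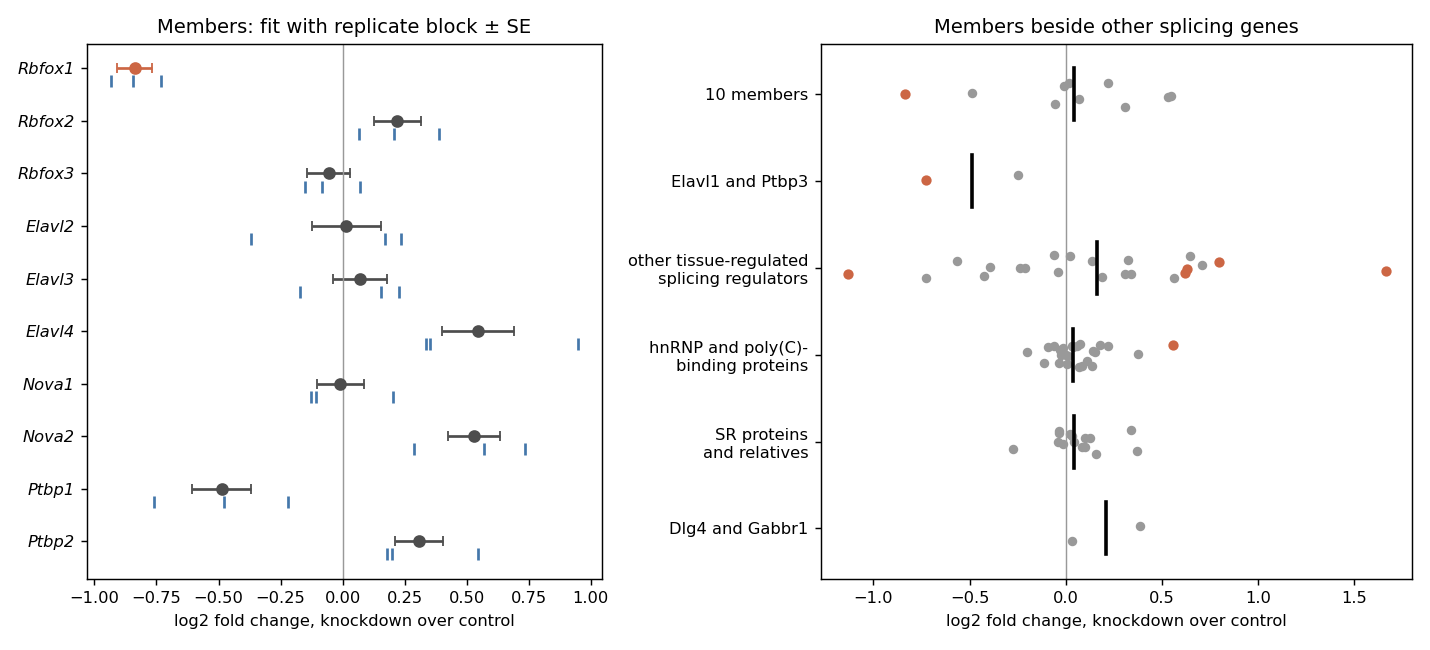
Left, log2 fold change of each member with the replicate block ± SE, with the 3 pair differences as blue ticks. Right, the same log2 fold change for every gene of the lists (orange, adjusted p under 0.05; black bars, medians), where Rbfox1 at -0.84 stands below the other members and Mbnl2 at -1.13 and Celf6 at 1.66 are the extremes.

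Ptbp proteins are known to hold down Dlg4 and Gabbr1 transcripts in non-neuronal cells by directing an exon choice that leads to decay. The PSD-95 gene Dlg4 was at 436, 315 and 291 CPM in controls against 514, 474 and 367 CPM in knockdowns, higher in each pair with overlap between groups (log2 fold change with the block 0.39, SE 0.10, edgeR adjusted p = 0.0727). The GABA-B receptor gene Gabbr1 was at 345 ± 73.5 and 353 ± 69.5 CPM (SD, n = 3; 0.03, SE 0.08, edgeR adjusted p = 0.771). Exon use itself cannot be read from gene counts, and whether either level follows Ptbp activity was not tested.

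The hairpin given in the labels, of 21 bases, is shown because a word of 7 bases inside it (positions 8 to 14 from its 5′ end, in capitals) was already known from earlier work on these data to mark genes that were lower, so its share is no independent support. Among 14028 tested genes with an annotated 3′ UTR (longest per gene, GENCODE M21), 12.5% held the word. Their median log2 fold change with the block was -0.14, beside 0.02 for genes without it, and 13.8% against 4.61% fell. Genes with and without the word were not matched for 3′ UTR length or base composition, so this contrast is not one of the word alone. Of the 10 members 2 held it, Nova1 and Ptbp2, once each; Of the other called splicing genes (Celf4 was not looked up), Ptbp3, which fell, and Khdrbs3, which rose, held it once each, and Mbnl2, Celf3, Celf6 and Pcbp3 held none, as did Rbfox1. The hairpin and both member sites read, 5′ to 3′, as follows.
Hairpin: gttcgttACAAGTGagaactc
Ptbp2 site: atttcttaagACAAGTGatttctgtaa
Nova1 site: agatatataaACAAGTGaaaactgtgg
Ptbp2 was higher in each pair and Nova1 had a log2 fold change near 0, so neither was among the genes with the word that fell. Whether the hairpin acts on any of these sites was not tested.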

How the data were processed

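Stranded mRNA libraries (50 bp single-end reads) make up the 6 samples, per the labels' protocols. The authors deposited raw read counts for each gene, and the submitters' processing notes name Trimmomatic, TopHat2, HTSeq, edgeR and DESeq2 with build mm9. No source used here gives versions, annotation or strand setting. Rows that name no gene were left out (reads in no feature, 12.1% to 15.0%). Columns were matched to samples by description. No 2 replicates of a group agreed within counting error (chi-square over its degrees of freedom, 174 to 381).

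Counts were filtered with filterByExpr (minimum 10, total 15), leaving 15731 genes, scaled by TMM and tested with edgeR 4.0.16 (quasi-likelihood, R 4.3.3), adjusted over all genes tested by Benjamini-Hochberg at 0.05. Each SE was taken as the size of the log2 fold change divided by the root of F. Deviations of same-numbered libraries correlated at 0.772, 0.709 and 0.701 across genes, so the numbers were taken to pair the libraries. This pairing comes from the data. Alternatives were other scalings and filters, DESeq2 1.42.0, limma 3.58.1 (voom), the replicate block, and leaving out libraries. The fits were tested on simulated data. Ratios used a pseudocount of 1. All 10 members were named, and in each other list up to 3 called genes with the smallest p or else the gene with the smallest p. The members and lists were chosen with earlier results of these data known. Promoters are from RefSeq, 3′ UTRs from GENCODE M21 (GRCm38), matched by symbol. No coordinates of the counts were used.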

Additional observations from a re-analysis of the deposited data

How the results depend on the processing

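Rbfox1, Ptbp1, Rbfox2, Elavl4, Nova2 and Ptbp2 kept their direction in all 20 alternative fits each. Among 200 alternative member values 164 kept direction and side of the threshold, 12 crossed it and 24 changed sign, all of the latter for Rbfox3, Elavl2, Elavl3 and Nova1. Of 64 alternative ratio values 59 kept their sign.

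The count of called genes, 1 without the replicate block, was 0 with library totals alone (1729 at an unadjusted p under 0.05), 568 with DESeq2, 1256 with the replicate block, 1342 with the block and RLE factors, 1276 with the block and library totals alone and 3440 with the block and DESeq2. Leaving out 1 library gave 0 each time (907 to 2306 at an unadjusted p under 0.05), and with the block leaving out replicate 1, 2 or 3 gave 0, 53 and 1272.

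With the replicate block Rbfox1 (-0.84) was called, also with RLE factors (-0.85), library totals alone (-0.77), DESeq2 (-0.86) and without replicate 3 (-0.90). Nova2 was called with the block under library totals alone (0.60), DESeq2 (0.51) and without replicate 3 (0.65), Elavl4 under library totals alone (0.62) and DESeq2 (0.53), and Ptbp1 under DESeq2 (-0.50) and without replicate 3 (-0.63). The block changed no other call.

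Nova1 turned sign with RLE factors (-0.0090), no filter (-0.0054), DESeq2 (-0.0090), limma-voom (-0.010), the replicate block (-0.0086), the block with RLE factors (-0.025) or DESeq2 (-0.025) and the block without replicate 1 (-0.12), and ranged from -0.19 to 0.14 when 1 library was left out. Elavl2 turned with limma-voom (-0.021), the block with RLE factors (-0.0017) or DESeq2 (-0.0025) and the block without replicate 2 (-0.083) or 3 (-0.10), and ranged from -0.79 to 0.90. Rbfox3 turned with the block and library totals alone (0.015) and ranged from -0.29 to 0.18. Elavl3 turned with the block without replicate 1 (-0.0080) and ranged from -0.26 to 0.32. When 1 library was left out without the block, Rbfox1 ranged from -1.16 to -0.51, Ptbp1 from -0.73 to -0.25, Rbfox2 from 0.10 to 0.31, Elavl4 from 0.39 to 0.81, Nova2 from 0.40 to 0.59 and Ptbp2 from 0.23 to 0.38. The Elavl2 to Elavl3 ratio, -0.06 and -0.80 to 0.83 when 1 library was left out, turned to 0.48 without control replicate 2, 0.020 without control replicate 3 and 0.83 without knockdown replicate 1, and the Elavl2 to Elavl4 ratio, -0.53 and -1.18 to 0.20, to 0.17 and 0.20 without control replicate 2 or knockdown replicate 1. The cause of these changes was not tested. The lowest member count was 1123 reads, so the spread between 3 libraries, not counting error, sets the precision.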
